A study of Mus musculus with 2 samples.

Results

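Chemokines and their feedback genes were followed in a culture of mouse blood progenitors with and without a knockdown of Cxxc5, which codes for a zinc finger protein that binds unmethylated CpG DNA. The 10 genes described here were the chemokine ligands Ccl3, Ccl4, Ccl6, Ccl9, Ccl17 and Ccl22, the cytokine gene Il1b, its receptor antagonist Il1rn, and the NF-kB feedback genes Nfkbia and Tnfaip3. They were chosen with earlier results of these data known. Their rows were taken by symbol, and all 10 were found among the 28692 genes listed in both count matrices. Bone marrow of C57BL/6 mice was infected with a retrovirus that carried GFP and a short hairpin RNA (shRNA), aimed either at Cxxc5 or at no mouse gene (control shRNA). GFP-positive LSK cells, a fraction named for its lineage-negative, Sca-1-positive and Kit-positive surface and rich in stem and progenitor cells, were sorted and grown for 3 days in DMEM with 20% fetal bovine serum, 10 ng/ml GM-CSF and 10 ng/ml SCF. Both groups therefore carried a retrovirus and saw the same cytokines. Each group was a pool of 5 samples read as 1 droplet library, so there was no replicate, no test was possible, and library and shRNA cannot be told apart. The age and sex of the mice, and whether the pools shared mice, were not given in the sources used here.

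Chemokines are small secreted proteins that guide leukocytes through receptors coupled to G proteins. Many are switched on by NF-kB, a transcription factor that is held in the cytoplasm by inhibitors such as the product of Nfkbia and released when cytokine or pathogen receptors signal. NF-kB in turn induces Nfkbia and Tnfaip3, whose products shut the signal down, and interleukin-1 acts upstream of the same pathway. In bone marrow, Ccl6 and Ccl9 are made by myeloid cells without inflammation, whereas Ccl17 and Ccl22 are chemokines of dendritic cells.

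After a filter on cells, 2912 control and 6004 knockdown cells held 49268318 and 62867598 UMIs (unique molecular identifiers, so that copies of a molecule count once), with medians of 17197 and 10599 per cell. Levels below are UMIs of a gene per 1000000 UMIs (CPM). Ratios are knockdown over control on the log2 scale, with exact 95% intervals for the error of counting UMIs, which leave out how mice, infections and cells vary. The targeted gene Cxxc5 had levels of 9.38 CPM (control) and 1.16 CPM (knockdown), a log2 ratio of -3.01. The libraries shared 26 cell barcodes. Joint clustering, made without the 10 genes, gave 9 clusters. Clusters 0 and 3 were granulocyte-monocyte progenitor-like, cluster 1 monocyte-macrophage-like, cluster 6 neutrophil-like, cluster 7 mast cell-like and cluster 8 dendritic cell-like, and clusters 2, 4 and 5 stayed unnamed. Cluster 7 held 8 and 18 cells and is left out of counts over clusters. The cells labelled LSK thus held markers of mature cells, such as S100a9 and Ltf of neutrophils, and of 10 markers of multipotent progenitors 3 passed a mean level of 10 CPM.

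All 10 genes were lower in the knockdown library, and the 95% counting interval lay below 0 for each except Tnfaip3. A call needed a mean of the 2 libraries of at least 10 CPM and a difference of at least 1.2-fold. Ccl6, Ccl9, Ccl17 and Nfkbia passed the floor, and all 4 were called lower, whereas 4.43% of the 6620 genes above the floor were called lower and 3.56% higher. Their median log2 ratio was -0.66, beside 0.03 for all genes above the floor. The other 6 genes were under the floor and were not called. At a floor of 2 CPM, 8 genes passed and all 8 were lower, beside 8.08% of genes, but Ccl22 passed only through its control level, which fixed its direction. At a fold of 1.5 with the floor of 10 CPM, 2 of the 4 were lower, beside 0.861% of genes. Because the 10 genes were chosen with earlier results of these data known, these counts beside all genes are descriptions.

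**Figure D1:**
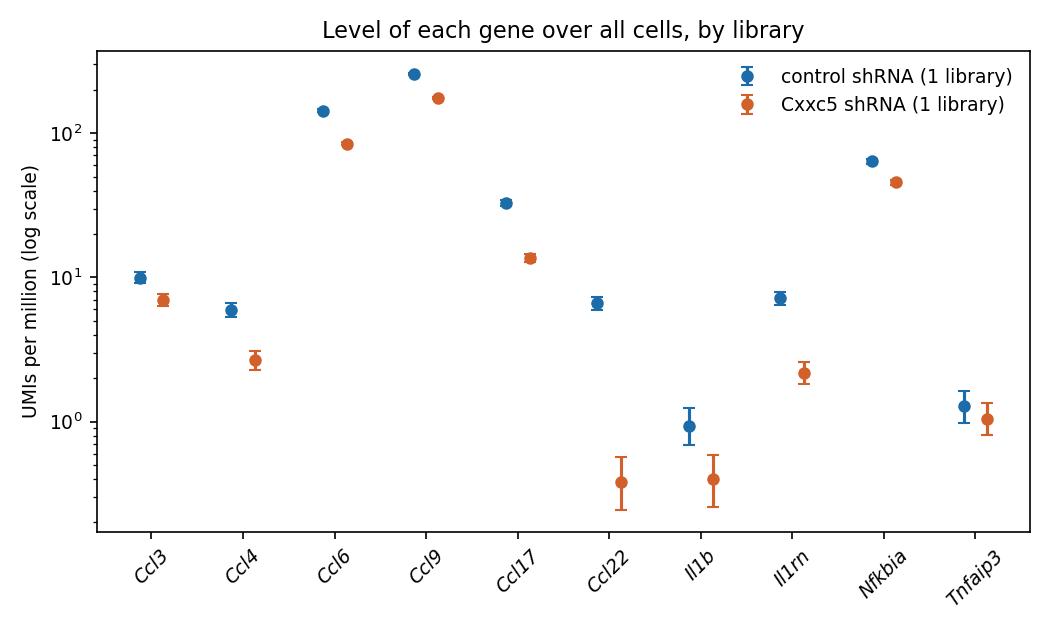
Level of each of the 10 genes over all cells, in CPM on a log axis, for 1 control (blue) and 1 knockdown library (orange), with exact 95% Poisson intervals for counting error. Every orange point lies below its blue neighbour, and the intervals overlap for Tnfaip3.

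How the UMIs were spread over cells differed between the genes. Ccl9 and Nfkbia were spread widely, with 4.43% and 4.97% of their control UMIs in the 10 richest cells. Ccl22 was at the other end: 1 control cell held 72.0% of its UMIs and 10 cells held 98.8%. A single control cell held 52.6% of the Ccl4 UMIs and 1 knockdown cell 28.0%. The 10 richest cells held 58.6% and 55.2% of Ccl17 and 34.5% and 18.3% of Ccl3. Intervals of counting error are therefore too narrow for Ccl3, Ccl4, Ccl17, Ccl22 and Il1b. The same holds for Ccl6 in cluster 4 and in dendritic cell-like cells, described below.

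**Figure D2:**
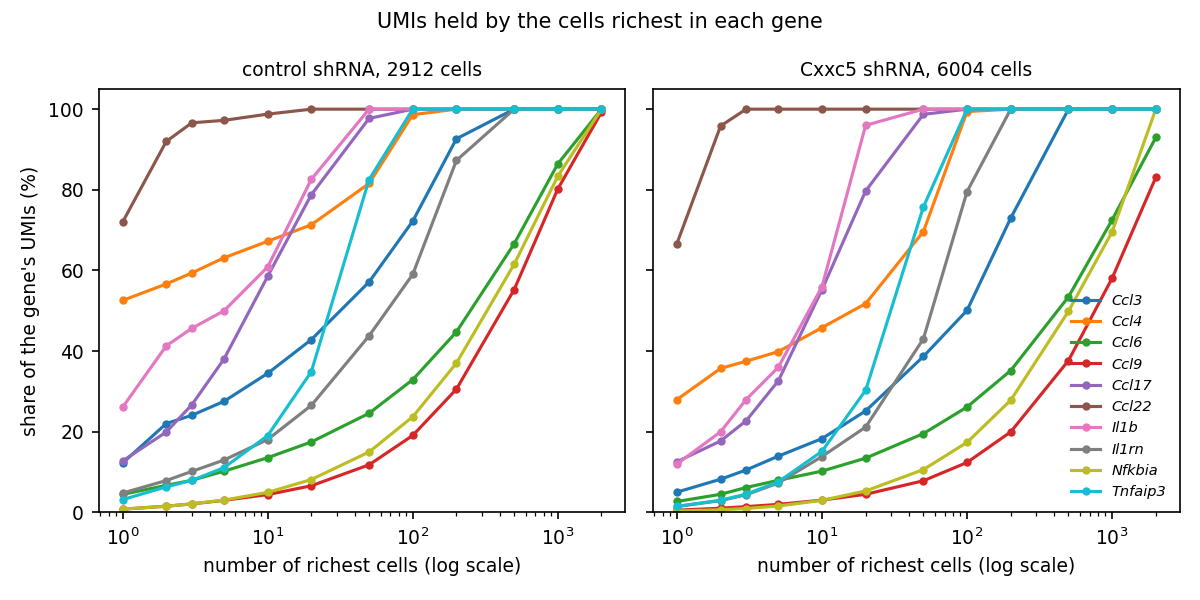
Share of each gene's UMIs held by its richest cells, for numbers of cells on a log axis, in the control (left) and knockdown library (right). The Ccl22 line starts at 72.0% and 66.7% with 1 cell, while Ccl9 reaches 4.43% and 3.05% with 10 cells.

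Among the constitutive chemokines, Ccl6 was lower in 8 of 8 clusters, though in cluster 4 its level rested on few cells. Ccl6, a ligand of Ccr1 found in mouse, lies at chr11:83587882-83593087 on the minus strand (GRCm38). Its levels were 143 CPM (control) and 84.4 CPM (knockdown), a log2 ratio of -0.76 (-0.82 to -0.71). In neutrophil-like cells, where the control level was highest, it was at 243 and 115 CPM (log2 ratio -1.07, -1.19 to -0.95). After each cell was thinned to 5000 UMIs, 52.4% of control and 33.3% of knockdown neutrophil-like cells held a Ccl6 UMI, as against 76.6% and 46.6% unthinned. The smallest difference was in unnamed cluster 2, led by Rangrf and Cited4, at 68.4 and 59.7 CPM (log2 ratio -0.20, -0.35 to -0.05). Dendritic cell-like cells had the largest, at 223 and 77.3 CPM (-1.53, -2.07 to -1.02), from 198 and 38 UMIs. One control cell held 41 of the 198. Cells of every named class except the few mast cell-like control cells held Ccl6 UMIs. In cluster 4, 7 control and 6 knockdown cells with at least 20 Ccl6 UMIs held 85.6% and 71.4% of its Ccl6. The cluster's cells with 1 to 19 Ccl6 UMIs were at 168 and 251 CPM, higher in the knockdown library. These cells were chosen by their Ccl6 UMIs, at median depths of 16051 and 10643 UMIs. A single UMI gives a higher CPM in a shallower cell, so no direction is read from these levels.

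Ccl9, the neighbour of Ccl6 and also a Ccr1 ligand, was likewise lower in 8 of 8 clusters, with the counting interval below 0 in 7 of them and reaching 0.15 in dendritic cell-like cells (log2 ratio -0.41). Ccl9 lies at chr11:83572919-83578636 on the minus strand and was at 258 and 176 CPM over all cells, a log2 ratio of -0.55 (-0.59 to -0.52). Its distribution over clusters was not that of Ccl6. Neutrophil-like cells, where Ccl6 was highest in the control, were the lowest cluster for Ccl9, at 37.0 and 23.4 CPM, with a UMI in 22.4% and 11.2% of cells. Unnamed cluster 4 was highest, at 418 and 302 CPM (log2 ratio -0.47, -0.56 to -0.38). The largest difference was in granulocyte-monocyte progenitor-like cluster 0, at 178 and 83.7 CPM (-1.09, -1.22 to -0.96), and the smallest in monocyte-macrophage-like cells, at 298 and 231 CPM (-0.37, -0.47 to -0.27). Of neutrophil-like cells with a Ccl6 UMI, 11.1% (control) and 9.32% (knockdown) also held Ccl9 after thinning, and 12.2% and 5.08% of those without Ccl6 did.

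Cluster 4 held a small set of cells very rich in Ccl6 and Ccl9 together with basophil protease genes. The cluster was led by Prss34, Hbb-bt, Csrp3, Ikzf2 and Gata2, so markers of several lineages were raised in it and it has no name here. Only 13.7% of its control and 9.72% of its knockdown cells held any Ccl6 UMI, at median depths of 11839 and 8384.5 UMIs. Yet 7 control cells with at least 20 Ccl6 UMIs held 85.6% of the cluster's Ccl6, and 6 knockdown cells held 71.4%. In these cells Ccl6 was at 9361 and 8321 CPM and Ccl9 at 4415 and 3109 CPM. Mcpt8, a protease gene of basophils, was at 5011 and 4455 CPM in them, and at 249 and 239 CPM in cells of the cluster with no Ccl6 UMI. Prss34, also a basophil protease gene, was at 11562 and 4094 CPM, beside 25.5 and 17.4 CPM in cells with no Ccl6. Fcer1a, a chain of the IgE receptor, was at 1101 and 682 CPM, and Pf4, a platelet chemokine, had no UMI in either set. The richest control cell held 316 Ccl6, 103 Ccl9 and 60 Ccl3 UMIs of 13825. The limit of 20 UMIs was set after the values were seen, so these levels are a description, and Ccl6 was used to choose the cells.

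**Figure D3:**
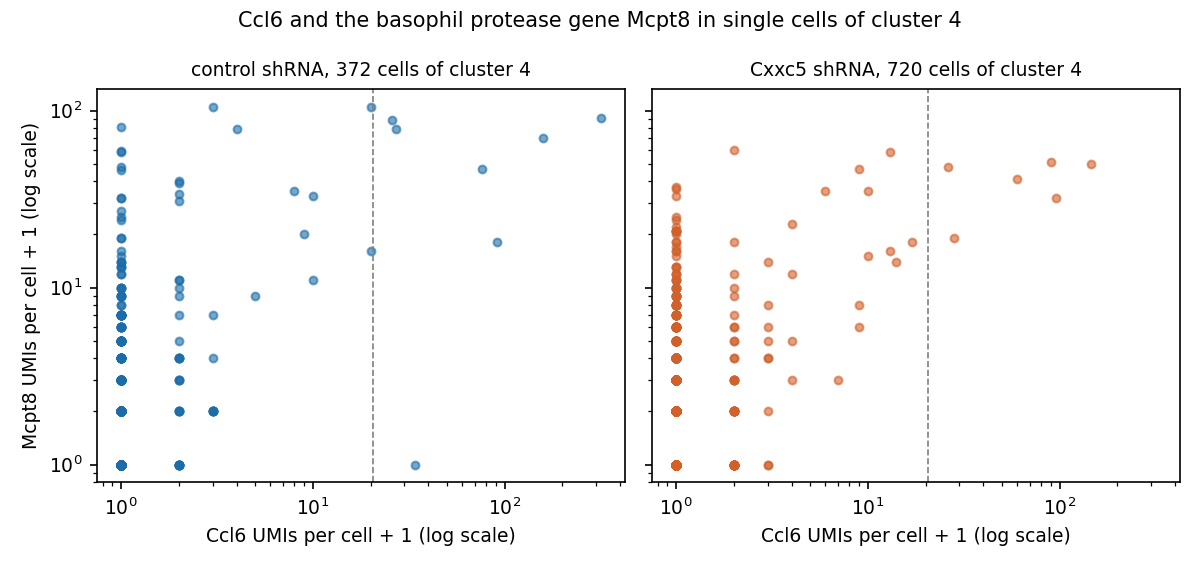
Ccl6 against Mcpt8 UMIs in each cell of cluster 4, both plus 1 on log axes, in the control (left) and knockdown library (right); the dashed line marks the limit of 20 Ccl6 UMIs. Of the 7 control cells right of the line, 6 held Mcpt8, as did all 6 knockdown cells.

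The 250 bases before the RefSeq start of both genes (GRCm38.p6, 5′ to 3′ on the gene's strand) are shown because Ccl9 and Ccl6 are neighbours on chromosome 11, and their windows differed in the letters searched. Capitals mark the NF-kappa-B consensus, searched on both strands. The Ccl9 window is chr11:83578637-83578886 and the Ccl6 window chr11:83593088-83593337, both minus strand.
Ccl9: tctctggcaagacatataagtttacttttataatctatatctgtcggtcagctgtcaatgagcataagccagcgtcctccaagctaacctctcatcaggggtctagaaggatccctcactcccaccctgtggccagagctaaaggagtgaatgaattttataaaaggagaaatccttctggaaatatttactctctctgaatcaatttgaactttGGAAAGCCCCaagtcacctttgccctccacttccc
Ccl6: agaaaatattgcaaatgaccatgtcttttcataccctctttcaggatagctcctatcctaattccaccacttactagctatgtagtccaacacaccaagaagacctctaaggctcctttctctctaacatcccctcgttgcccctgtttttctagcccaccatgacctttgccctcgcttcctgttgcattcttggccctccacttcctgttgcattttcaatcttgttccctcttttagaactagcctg
The Ccl9 window held 1 match, 35 to 26 bases before the start, and an AP-1 match (TGANTCA, both strands) 53 to 47 bases before it. The Ccl6 window held neither. Of all 32851 RefSeq windows of the same length, 3.90% held the NF-kappa-B consensus and 6.75% the AP-1 letters. A match is a description of the sequence and not a bound site.

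Ccl3 and Ccl4, which lie next to each other on chromosome 11 and code for inflammatory chemokines, were low and held by few cells. Ccl3 (chr11:83647844-83649355, minus strand) had 490 control and 437 knockdown UMIs, at 9.95 and 6.95 CPM (log2 ratio -0.52, -0.71 to -0.33). Among clusters it was lower in 4 and higher in 4. It was lower in monocyte-macrophage-like cells, at 26.3 and 14.7 CPM (-0.84, -1.23 to -0.45), and in cluster 4, at 22.5 and 8.84 CPM (-1.35, -1.85 to -0.87). A single control cell of each cluster held 48 and 60 of the 169 and 110 UMIs behind those levels. The monocyte-macrophage-like cell with 48 also held 13 Tnf and 16 Cxcl2 UMIs, genes of inflammatory cytokines. Without the 10 richest cells of each library the log2 ratio of Ccl3 over all cells was -0.20. In dendritic cell-like cells Ccl3 was higher in the knockdown library, at 16.9 and 69.2 CPM (2.03, 1.12 to 3.01), from 15 and 34 UMIs. One knockdown cell held 14 of the 34, and another held 9 with no UMI of Cd74 or H2-Aa, leading genes of that cluster. A Ccl3 UMI was found in 11.9% and 13.5% of the cells.

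Ccl4 (chr11:83662584-83664683, plus strand) was at 5.95 and 2.67 CPM, from 293 and 168 UMIs (log2 ratio -1.15, -1.44 to -0.88). One dendritic cell-like control cell held 154 Ccl4 UMIs, together with 68 Ccl17, 41 Ccl6, 11 Il1rn and 7 Il1b UMIs. One dendritic cell-like knockdown cell held 47 Ccl4, 44 Ccl17 and 14 Ccl3 UMIs. Without the 10 richest cells of each library the log2 ratio of Ccl4 was -0.43. A progenitor-like knockdown cell in cluster 0 held 13 of that cluster's 19 Ccl4 UMIs and 22 of its 40 Ccl3 UMIs. Among clusters with at least 20 Ccl4 UMIs, cluster 0 was the one where Ccl4 was higher, at 0.67 and 2.02 CPM (1.60, 0.13 to 3.38). Of thinned cells with Ccl3, 2 of 104 control (1.92%) and 4 of 154 knockdown cells (2.60%) held Ccl4, beside 1.11% and 0.746% of all thinned cells. Unthinned, the shares were 7.63% beside 3.57% and 5.97% beside 1.68%.

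The dendritic cell chemokines Ccl17 and Ccl22, which both signal through Ccr4 and lie near each other on chromosome 8, were held mainly by cluster 8. This cluster was led by Cd74, H2-Aa, H2-Eb1 and Ccl5 and held 67 control cells (2.30%) and 74 knockdown cells (1.23%), with median depths of 12735 and 5544 UMIs. Ccl17 (chr8:94810453-94812036, plus strand) was at 32.8 and 13.6 CPM over all cells (log2 ratio -1.26, -1.38 to -1.14), and 85.9% and 71.0% of its UMIs were in cluster 8. Within it, Ccl17 was at 1563 and 1240 CPM, a smaller log2 ratio of -0.33 (-0.47 to -0.20). With the control library's cluster shares used for both libraries, the ratio over all cells was -0.28. A Ccl17 UMI was found in 47 of 67 control cells (70.1%, exact interval 57.7 to 80.7) and 35 of 74 knockdown cells (47.3%, 35.6 to 59.3), but after thinning, which kept 59 control and 41 knockdown cells of the cluster, the shares were 64.4% and 70.7%. Cluster 0, deeper at medians of 19218 and 10809 UMIs, held Ccl17 in 0 of 391 control cells, so the share could reach 0.767%, and in 0.117% of knockdown cells.

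The cluster itself was not the same in both libraries. No Cd74 UMI was found in 8 of its control and 22 of its knockdown cells. Among cells with Cd74, which codes for the chaperone of MHC class II, Ccl17 was found in 47 of 59 control (79.7%) and 35 of 52 knockdown cells (67.3%), at 1677 and 1476 CPM. These cell counts were not thinned, and the cluster's median depths were 12735 and 5544 UMIs, so no direction is read from the shares. Over all cells, the 5 dendritic cell markers above the floor, of 14 listed, were all lower, with a median log2 ratio of -1.41. Their summed level, with the whole list, was 200 and 83.3 CPM. Cd209a had no UMI in the control and Xcr1 none in the knockdown library. The part of this change in the Ccl17 level over all cells was not tested beyond the values above.

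Outside cluster 8, Ccl17 sat in single cells. In monocyte-macrophage-like cells it was at 31.8 and 7.61 CPM (log2 ratio -2.06), and 1 control cell with 73 Cd74 UMIs held 116 of its 205 UMIs. In the knockdown library 2 cells held all 146 UMIs of the neutrophil-like cluster, where the control had 3. The first held 108 Ccl17, 16 Ccl22, 77 Cd74 and 619 S100a8 UMIs, and the second 38 Ccl17, 36 Cd74 and 1073 S100a8 UMIs. These cells thus held UMIs of class II and of neutrophil genes, and neither was among those with the highest doublet scores. A further knockdown cell in cluster 3 held 39 of the 44 Ccl17 UMIs there and was among the highest doublet scores.

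Ccl22 (chr8:94745590-94751699, plus strand) had 325 control and 24 knockdown UMIs, at 6.60 and 0.38 CPM (log2 ratio -4.11, -4.77 to -3.51). Only 14 control and 3 knockdown cells held any. In the control, 317 of the UMIs were in cluster 8, where 3 cells held 234, 65 and 15. All 3 were among the 5 control cells of the cluster with a UMI of Ccr7, the receptor that takes mature dendritic cells to lymph nodes, and those 5 cells held 314 Ccl22 and 63 Fscn1 UMIs. The 6 knockdown cells with Ccr7 held 7 Ccl22 and 5 Fscn1 UMIs, at a median depth of 3851 UMIs against 9303. Ccl5, a chemokine gene on chromosome 11, had 325 and 203 UMIs in the same cells. The other 16 of the 24 knockdown UMIs were in the neutrophil-like cell described above. Without cluster 8 the Ccl22 log2 ratio was 0.72, from UMIs of a few cells, so the difference in Ccl22 rests on 3 control cells.

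**Figure D4:**
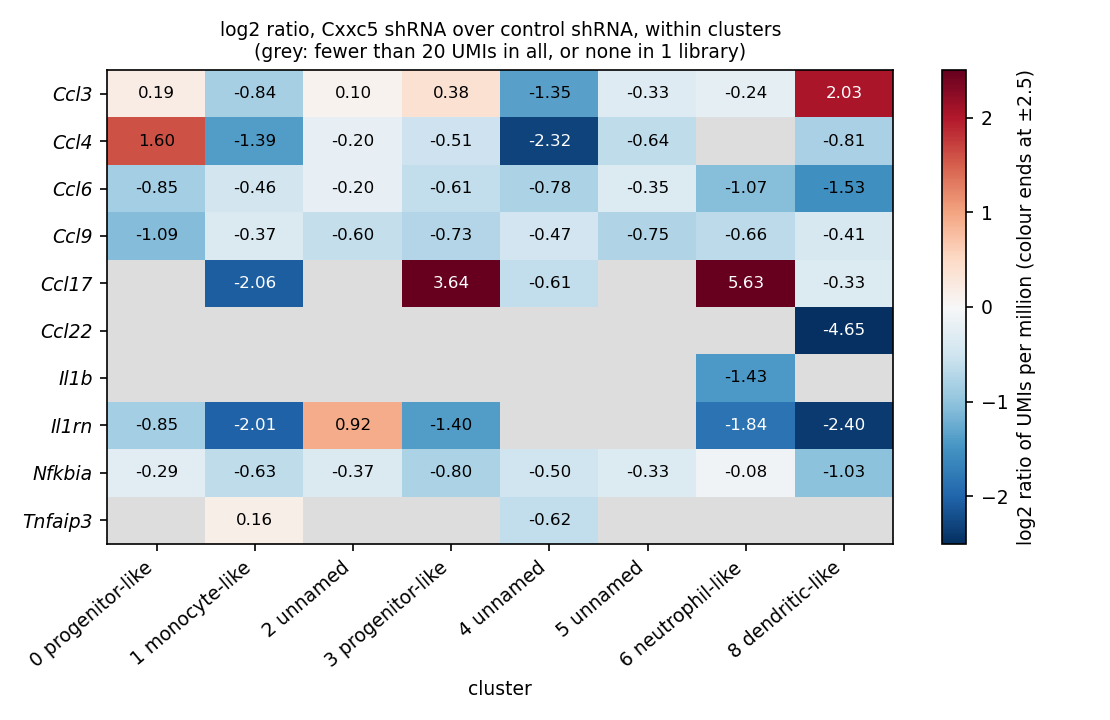
Ratio of CPM, knockdown over control, for each gene (rows) in each cluster (columns), on the log2 scale; blue is lower and red higher in the knockdown library, grey has fewer than 20 UMIs in all or none in 1 library, and the colour ends at 2.5 in either direction. The rows of Ccl6, Ccl9 and Nfkbia are below 0 in all 8 clusters, while Ccl3 has 4 values above 0. Most Ccl6 UMIs of cluster 4 sat in the few cells described in the text. Ccl17 values of 3.64 and 5.63 come from the single cells named in the text.

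Of the interleukin-1 genes, the antagonist Il1rn differed most plainly, and in neutrophil-like cells. Il1rn, which codes for a secreted protein that blocks the interleukin-1 receptor, lies at chr2:24336853-24351494 on the plus strand. Over all cells it was at 7.19 and 2.18 CPM, from 354 and 137 UMIs (log2 ratio -1.72, -2.02 to -1.43). The neutrophil-like cluster accounted for 59.9% of Il1rn UMIs without and 42.3% with the knockdown. Within them Il1rn was at 28.9 and 8.07 CPM (-1.84, -2.29 to -1.42), with a UMI in 25.4% and 6.29% of cells, and in 13.1% and 4.10% after thinning. Cluster 2, with deeper medians of 23363 and 12596 UMIs, held it in 1.35% and 1.37% of cells. The level was also lower in monocyte-macrophage-like cells, at 5.59 and 1.38 CPM (-2.01, -3.33 to -0.88), and in progenitor-like cluster 0, at 6.13 and 3.40 CPM (-0.85, -1.55 to -0.17). Among the 6 clusters with at least 20 Il1rn UMIs, 5 were lower and 1 was higher (log2 ratio 0.92), with an interval that was not above 0. No single cell carried the difference, since the log2 ratio without the 10 richest cells of each library was -1.65.

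The lower Il1rn level was found in both parts of the neutrophil-like cells when a finer clustering, at resolution 1.0, split them by Ltf, a gene of the later granule stage. In the part low in Ltf (247 control and 420 knockdown cells) Il1rn was at 18.0 and 6.13 CPM (log2 ratio -1.56, -2.28 to -0.88). In the part high in Ltf (262 and 353 cells) it was at 46.4 and 11.9 CPM (-1.97, -2.58 to -1.40). S100a8, the main neutrophil marker, had ratios of -0.03 and 0.03 there, and Ltf itself 1.74 and 0.70. Il1r2, the decoy receptor for interleukin-1, was higher in both, at 137 and 189 CPM in the first and 190 and 235 CPM in the second (0.46 and 0.31). Ccl6 was lower in both, at 182 and 95.4 CPM and at 323 and 155 CPM. After thinning, Il1rn was found in 15.3% of control neutrophil-like cells with Ccl6 and in 10.5% of those without, and in 6.36% and 2.97% in the knockdown library.

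Il1b (chr2:129364570-129371139, minus strand), the gene of interleukin-1 beta, had only 46 control and 25 knockdown UMIs, at 0.93 and 0.40 CPM (log2 ratio -1.23, -2.00 to -0.50). A single neutrophil-like control cell held 12 of the 46, with 17 Il1rn, 69 Ccl6 and 12 Nfkbia UMIs. In neutrophil-like cells there were 22 and 8 UMIs. With cells thinned to 5000 UMIs the log2 ratio over all cells was -0.40.

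Nfkbia, the gene of the inhibitor that binds NF-kB, was lower in most clusters but near level in the cluster with the largest share of its UMIs. Nfkbia (chr12:55489410-55492647, minus strand) was at 63.7 and 45.7 CPM over all cells (log2 ratio -0.48, -0.55 to -0.41). In neutrophil-like cells, with 37.1% and 37.6% of its UMIs, it was at 159 and 150 CPM (-0.08, -0.20 to 0.04). In the Ltf-low and Ltf-high parts the log2 ratios were -0.07 (-0.26 to 0.12) and 0.00 (-0.16 to 0.17). In the other 7 clusters the ratio lay between -0.29 and -1.03, with every interval below 0. Progenitor-like cluster 3 was at 38.9 and 22.4 CPM (-0.80, -1.05 to -0.55) and monocyte-macrophage-like cells at 64.6 and 41.9 CPM (-0.63, -0.86 to -0.39). No difference in Nfkbia within neutrophil-like cells was detectable at this depth, while in the same cells Il1rn and Ccl6 were lower with intervals that did not reach that of Nfkbia.

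**Figure D5:**
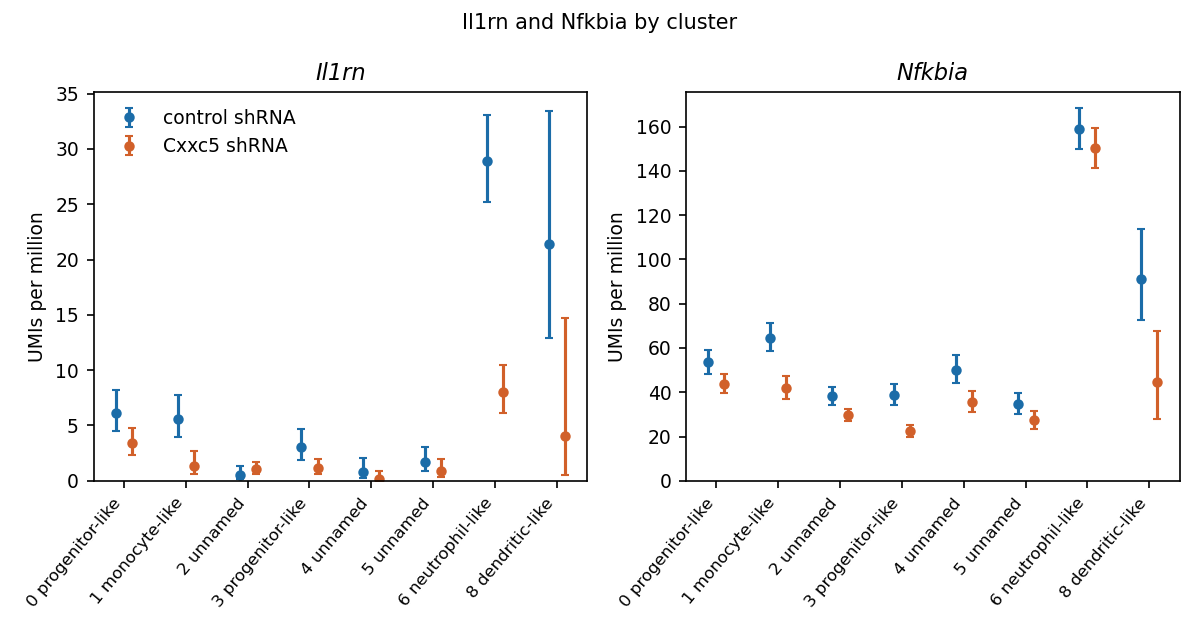
Il1rn (left) and Nfkbia (right) by cluster in CPM, on linear axes from 0, for the control (blue) and knockdown library (orange), with exact 95% Poisson intervals for counting error. Both are highest in the control in neutrophil-like cells, where Il1rn is at 28.9 and 8.07 and Nfkbia at 159 and 150 CPM.

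Tnfaip3 (chr10:19000910-19015657, minus strand), whose product removes ubiquitin chains from the NF-kB signalling complex, had 63 and 66 UMIs, at 1.28 and 1.05 CPM (log2 ratio -0.28, -0.80 to 0.24). A difference was not detectable at this depth. Its UMIs were spread 1 to a cell, with 61 and 66 cells for the 63 and 66 UMIs. No cluster with at least 20 UMIs had an interval away from 0. With cells thinned to 5000 UMIs there were 24 UMIs in each library, and the log2 ratio was -0.94.

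Both feedback genes held the NF-kappa-B consensus before a RefSeq start, and the windows are shown for that reason, with matches in capitals. The Nfkbia window is chr12:55492648-55492897, minus strand. For Tnfaip3 the 137 bases nearest the first RefSeq start are given, chr10:19015411-19015547, minus strand. In GENCODE M21, where the gene starts at 19015657, these bases lie inside the gene but outside its exons, and not before its start.
Nfkbia: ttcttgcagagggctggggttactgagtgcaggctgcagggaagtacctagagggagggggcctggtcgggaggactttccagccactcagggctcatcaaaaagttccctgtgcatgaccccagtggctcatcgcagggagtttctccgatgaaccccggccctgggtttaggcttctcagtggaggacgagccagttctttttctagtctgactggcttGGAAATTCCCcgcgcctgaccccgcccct
Tnfaip3: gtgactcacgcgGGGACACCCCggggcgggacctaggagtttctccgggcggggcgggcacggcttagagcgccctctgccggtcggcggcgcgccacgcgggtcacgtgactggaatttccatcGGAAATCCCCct
Nfkbia held 1 match, 29 to 20 bases before the start, and Tnfaip3 held 2, at 125 to 116 and 12 to 3 bases before its first RefSeq start. The window of its second RefSeq start held no match. Of the 9 genes with a window in the RefSeq table, 3 held the consensus (Ccl9, Nfkbia and Tnfaip3), beside 4.46% of all 27025 genes with a window. No window was matched for Ccl4.

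Genes of the same pathways are given by list over all cells, to be read beside the 4.43% of all genes called lower and 3.56% called higher. Of the NF-kB subunits and kinases, 8 of 12 listed passed the floor, none was called lower and 1 higher, Map3k7, a kinase upstream of NF-kB, at 12.0 and 14.5 CPM (log2 ratio 0.28). Of other NF-kB inhibitors and feedback genes, 7 of 16 passed and none was called in either direction (median -0.08). Of the interleukin-1 signalling and inflammasome genes, 9 of 16 passed and none was called (median -0.05). Of other NF-kB targets, 6 of 18 passed and 2 were called lower. These were Bcl2a1b, a survival gene with near-identical copies whose reads counting could split, at 38.8 and 20.0 CPM (-0.95), and Ier3, at 21.9 and 15.9 CPM (-0.46). Immediate early genes were called lower in 3 of the 5 above the floor, of 11 listed: the AP-1 subunit gene Jund at 66.0 and 41.5 CPM (-0.67), Klf6 at 21.9 and 14.2 CPM (-0.62) and Btg2 at 14.6 and 10.9 CPM (-0.42). Below the floor, and so not called, Jun was at 6.66 and 3.32 CPM. Log2 ratios there were -0.91 for Nlrp3, -0.80 for Relb, -0.72 for Socs3 and -0.59 for Tnf, each of the 5 with a counting interval below 0. These 5 were picked after the values were seen. The other genes of the lists below the floor went both ways. Some were also lower, such as Tnip3 (-0.80, -1.27 to -0.33) and Zfp36 (-0.53, -0.79 to -0.27). Others were near level or higher, such as Nfkb2 (0.00), Birc2 (0.01) and Il1rap (0.21, 0.01 to 0.40). No direction of a list is read from such genes.

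Of the 14 chemokine receptors listed, 2 passed the floor and 1 was called lower, Ccr2, which brings monocytes out of the marrow, at 40.5 and 22.9 CPM (log2 ratio -0.82). Of 24 other chemokine ligands only Pf4 passed, at 28.8 and 24.6 CPM (-0.23), and it was not called. Marker lists moved beside the 10 genes. Monocyte-macrophage markers were called lower in 7 of the 8 above the floor, with the summed level of the list at 739 and 470 CPM. Neutrophil markers were lower in 6 of 12, with a sum of 23569 and 18213 CPM, and granulocyte-monocyte progenitor markers were higher in 1 of 12. The part of these shifts in the levels over all cells was not tested, and the values within clusters stand above.

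Within clusters, the count of called genes stood against a background that differed between clusters. In monocyte-macrophage-like cells all 5 of the genes above the floor were lower, beside 9.67% of genes, and Ccl17 passed only through the control. All 3 were lower in progenitor-like clusters 0 and 3, beside 8.36% and 7.13%. In clusters 4 and 5 the counts were 4 of 4 and 3 of 3, beside 9.27% and 8.85%, and in cluster 2 they were 2 of 3, beside 4.78%. In cluster 4, Ccl3 passed only through the control. In neutrophil-like cells 3 of 5 were lower, beside 9.82%, and 1 higher, beside 15%, namely Ccl17 from the 2 cells described. In dendritic cell-like cells 7 of 8 were lower and 1 higher, beside 26.5% and 30%. Il1rn passed only through the control in both of these clusters, and Ccl17 only through the knockdown library in neutrophil-like cells. For a gene that passed through 1 library the direction was fixed by the floor, so these counts are descriptions and nothing is read from them.

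The genes whose levels ran most like those of Ccl17, Ccl6 and Ccl9 were found over 16 points, 8 clusters in each library, that share libraries, depth and cell makeup. For Ccl17 these were H2-Aa, Cd74 and H2-Eb1, all of MHC class II (Pearson r of 0.98, 0.97 and 0.97). For Ccl6 they were Emp3, Fcgr3 and Myh9 (0.89, 0.86 and 0.80), and for Ccl9 Akr1e1, Abhd14a and Pabpc1 (0.97, 0.95 and 0.95). These are descriptions without a test.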

How the data were processed

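The authors deposited UMI counts for each gene in each cell barcode. The libraries used the 10x Genomics 3′ kit, per the labels' protocols. Cell Ranger 2.1.1 and the mm10 build are named in the submitters' processing notes, while the release of the gene annotation is not given in the sources used here. Genes were located in GENCODE M21 (GRCm38), and windows before starts came from RefSeq (GRCm38.p6).

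Barcodes stayed in with 500 or more detected genes and no more than 10% mitochondrial UMIs, 2912 of 2925 control and 6004 of 6015 knockdown barcodes. Scrublet called 7 and 17 cells (0.240% and 0.283%), too few for a working call, so none was removed. Clusters were made with scanpy 1.11.5 from both libraries without batch correction (10000 UMIs per cell, log scale, 2000 variable genes without the 10 genes, 30 components, 15 neighbours, Leiden resolution 0.6). Naming went by the marker list best represented in a cluster's 10 leading genes by fold (50 CPM or more), given 3 markers of that list raised 1.5-fold (20 CPM or more). After the clusters were seen it was added that a cluster with more markers of other lists than of its own there stays unnamed, which left cluster 4 without a name. Levels carry exact Poisson, ratios exact binomial and shares exact Clopper-Pearson intervals of 95%, which cover counting error only. A count of 0 allows a share of up to 3 cells over the cells counted. Thinning to 5000 UMIs left out 115 control and 641 knockdown cells. The calculation of ratios, intervals and calls was tested on simulated UMI sums with counting error only, so without the unevenness between cells described above.

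The 10 genes and the lists were chosen with earlier results of these data known. Named genes were the 10, up to 3 called higher and 3 lower in each list, the 3 genes most alike in log2(CPM + 1), and leading genes of clusters. The other genes named, the split by Ccr7, by Ccl6 UMIs and by Ltf were chosen after the values were seen. The genes most alike to Nfkbia are not reported here.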

Additional observations from a re-analysis of the deposited data

How the results depend on the processing

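The 10 genes were recomputed under other scaling, cell filters, doublet removal, thinning, equal weight per cell, without the 10 cells richest in each gene, and with the control library's cluster shares. Leaving out the dendritic cell-like cluster was added after the data were seen. Of 79 log2 ratios, 59 moved by less than counting error, 78 were below 0, and 1 reversed: Ccl22 at 0.72 without the dendritic cell-like cluster. The number of genes called lower, 4, became 8 at a floor of 2 CPM and 2 at a fold of 1.5. The number was 3 at a floor of 50 CPM, without the 10 richest cells, and without the dendritic cell-like cluster. Ccl17 was under the floor in each of these settings. The median log2 ratio of -0.66 became -0.96 at a floor of 2 CPM and -0.55 at 50 CPM. It was -0.54 without the 10 richest cells, -0.47 with control cluster shares and -0.56 without the dendritic cell-like cluster. Ccl17 ranged from -1.43 to -0.24, whereas Il1rn ranged from -2.07 to -1.55, Ccl9 from -0.62 to -0.52 and Ccl6 from -0.85 to -0.69. No Ccl22 ratio could be had without its 10 richest cells, since none of its knockdown UMIs remained. With each library clustered alone, the dendritic cell-like share of the Ccl17 UMIs was 98.6% (control) and 72.1% (knockdown), but of unlike sets of cells. The control cluster held 484 cells (16.6%), with the monocyte-macrophage markers Ctss and Klf4 among its leading genes, and the knockdown cluster 36 cells (0.60%). No cluster of the control was monocyte-macrophage-like. The cause of the shifts in the log2 ratios was not tested. No paired analysis was possible because each group had 1 library. Few UMIs limit Il1b, Tnfaip3 and Ccl22, which had 25, 66 and 24 in the knockdown library.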

Other observations

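Ccl2, a ligand of Ccr2, had 16 control and 68 knockdown UMIs, at 0.32 and 1.08 CPM. The mast cell-like cluster, led by Mcpt2, Cma1 and Tpsb2, held 8 and 59 of these UMIs, in 3 of its 8 control and 12 of its 18 knockdown cells. Median depths in that cluster were 7704.5 and 3518.5 UMIs. Of the 10 genes, Ccl9 and Ccl6 had UMIs there mainly in single knockdown cells, at most 30 and 18 in 1 cell.

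The genes that flank Ccl17 on chromosome 8 but code for no chemokine had higher levels in the knockdown library, but none met the limits for a call. Ciapin1 was at 58.4 and 62.0 CPM, Coq9 at 27.6 and 29.3 CPM and Polr2c at 144 and 161 CPM, while Dok4 was low, at 0.65 and 1.19 CPM. Ccl5, which lies on chromosome 11 beside Ccl9, was at 6.86 and 3.83 CPM, and in the control 2 dendritic cell-like cells held 325 of its 338 UMIs.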
